A study of Mus musculus with 9 samples.

Results

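The regions described here are perfect tandem arrays of the telomere hexamer TTAGGG in the assembled mouse genome that lay under peaks of UBTF, measured by chromatin immunoprecipitation sequencing (ChIP-seq). Members were selected on measured values. In each of 6 UBTF peak lists, the 20000 peaks with the highest peak-caller score outside the ribosomal RNA gene (rDNA) sequence were taken, and a peak was a member when the longest tandem repeat within 100 bp on each side of its summit was the hexamer, on either strand, over at least 40 bp. The rule found 883 member peaks among 120000, and member windows within 1000 bp of each other were joined into 159 loci. Since the score chose the members, their ranks are given as a description with no test.

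The series has 9 samples of primary pre-B cells, sorted from bone marrow of C57BL/6 mice by flow cytometry. The labels give the gate as B220 high, IgM low and IgD low for all of them, while the study's methods describe the malignant cells as B220+, IgM- and IgD-. Of these, 6 are UBTF libraries, 2 for each stage, and 3 are inputs, 1 for each stage, which have no peak list and were not analysed here. Wild type mice carried no transgene and were 4 to 6 weeks old. Premalignant mice were heterozygous for Eµ-Myc, a transgene that drives MYC in B cells from the immunoglobulin heavy chain enhancer, and were of the same age. Malignant mice carried the same transgene and had spontaneous lymphoma at 10 to 20 weeks. The study's methods give wild type and premalignant mice as female and malignant mice as of both sexes, and describe the libraries of a stage as biological replicates.

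UBTF is an architectural protein with high mobility group boxes that bends DNA and holds rDNA repeats open for RNA polymerase I. Mammalian telomeres are long arrays of TTAGGG that are bound by the shelterin proteins and protect chromosome ends. Shorter arrays of the same hexamer lie inside chromosomes and are known as interstitial telomeric sequences, and a genome assembly holds those together with only the fragments of true telomeres that were sequenced and placed.

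Values for the 6 libraries are given throughout in the order wild type replicates 1 and 2, premalignant replicates 1 and 2, malignant replicates 1 and 2. The lists were of unequal length, with 116093, 184574, 78074, 575596, 279021 and 563195 peaks outside rDNA. They also fell into narrow and wide sets by the width of their peaks. The narrowest peak was 240, 250 and 260 bp in both wild type lists and the first premalignant list, and 680, 800 and 670 bp in the other 3. The best 20000 peaks covered 43.6, 42.5, 42.9, 85.6, 64.3 and 74.4 Mb. Wild type libraries were all narrow and malignant libraries all wide, so stage and peak width cannot be told apart between them, and values within a width are given beside the stage comparisons. Read depth is unknown, since peak lists hold no read counts.

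Members numbered 144, 144, 155, 148, 138 and 154 peaks, in 141, 142, 151, 147, 136 and 152 loci. They were 0.72, 0.72, 0.775, 0.74, 0.69 and 0.77% of the best 20000 windows, and they were crowded at the top of the lists. Among the best 100 peaks of a list, 23, 25, 34, 70, 48 and 78 were telomere array peaks. Among the best 10, there were 2, 5, 3, 7, 4 and 8.

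The median rank of a member was 1114, 1034, 609, 109.5, 282.5 and 99.5. All members but a few in wild type replicate 1 had the lowest false discovery rate of their list, 97.2% there beside 77.2% of its best 20000 peaks, and 100% in the other 5 lists, as did all of their best 20000. The lower quartiles of the ranks were 211.8, 214.2, 121, 47.8, 65.5 and 45.2, and the upper quartiles 3316, 3416, 2318, 301.2, 1308 and 260.5. Over the 150 loci with a peak in all 6 full lists, median ranks were 1162, 1182, 609.5, 112.5, 356 and 101. The 3 wide lists thus had the 3 lowest medians, and the premalignant libraries, one narrow and one wide, lay further apart from each other than the wild type pair. Whether peak width or depth sets these ranks was not tested.

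**Figure D1:**
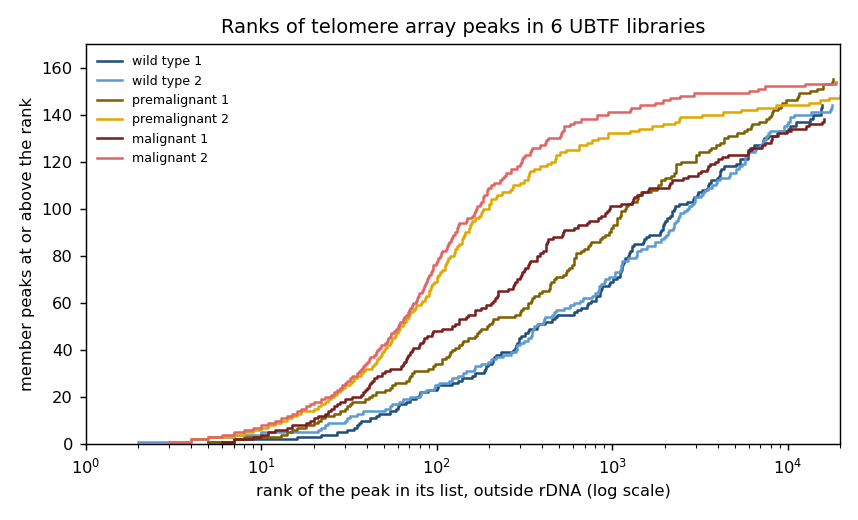
Number of member peaks at or above each rank (log scale) in the 6 libraries, 1 line per library. The lines of premalignant replicate 2 and malignant replicate 2 rise first, with 132 and 141 members among the best 1000 peaks against 69 and 71 in wild type.

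Members were widely shared. A best 20000 peak in all 5 other libraries overlapped 136, 134, 138, 131, 134 and 135 members, which is 94.4, 93.1, 89.0, 88.5, 97.1 and 87.7% of them. For all best 20000 peaks of the same libraries, the shares were 9.13, 8.76, 9.34, 8.46, 9.38 and 8.74%. Of the 159 loci, 129 were members in 6 libraries, 6 in 5, 9 in 4, 5 in 3, 4 in 2 and 6 in 1. In the full lists, 150 loci had a peak in every library.

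Summits sat on the arrays. The median distance from summit to array centre was 9.5, 10, 7, 6.5, 9 and 6.5 bp, and 97.2, 96.5, 96.1, 98.0, 97.1 and 98.1% of member summits fell inside the array. The rule required an array within 100 bp of the summit, so part of this closeness was fixed by it. Member peaks had nearly the same median width in every list, from 2106 to 2125 bp, including those lists whose best 20000 peaks were wider, with medians of 6904, 3151 and 3344 bp.

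The locus with the best mean rank, where a missing peak counted as the length of the list plus 1, was at the end of chromosome 5, where the last bases of the assembled sequence are hexamer copies. Its ranks were 7, 4, 7, 5, 6 and 3. A locus on chromosome 14 ranked better in the 4 wild type and premalignant libraries and had no malignant peak, as described below. The end of chromosome 11, with the longest array among the loci at 178 bp, came next with ranks of 34, 7, 18, 7, 10 and 4. No gene is annotated over either array. The nearest protein-coding starts were those of Rfc3, a clamp loader subunit, at 83376 bp and of Gm9631 at 25727 bp.

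The other 10 of the 12 best loci by mean rank were interior, and their longest arrays measured 73 to 98 bp. An intron of Dopey2 on chromosome 16 held a 95 bp array at ranks 27, 21, 15, 10, 11 and 8. An intron of Greb1 on chromosome 12 (16754623 to 16754720) held a 98 bp array at ranks 31, 23, 14, 9, 12 and 7, and an intron of Pde1c, a cyclic nucleotide phosphodiesterase, on chromosome 6 (56183652 to 56183740) held 89 bp at ranks 35, 51, 21, 13, 19 and 11. These arrays were near the top in every library, with the weakest rank in a wild type library each time.

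The remaining 7 were intergenic. Arrays on chromosome 14 (69780069 to 69780154, 86 bp), chromosome 4 (152527180 to 152527252, 73 bp) and chromosome 13 (116983105 to 116983198, 94 bp) had mean ranks of 19.2, 21.0 and 21.5. Those on chromosome 8 (86280802 to 86280885, 84 bp), chromosome 18 (48170068 to 48170157, 90 bp), chromosome 9 (115259945 to 115260023, 79 bp) and chromosome 3 (21597366 to 21597454, 89 bp) had mean ranks of 23.5, 23.7, 28.2 and 32.7. Over all 12 loci, ranks ran from 3 to 61.

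Replicates did not always rank a locus alike. The locus on chromosome 2 around 57482083, a cluster of 5 perfect arrays of which the longest is 56 bp, ranked 212, 5, 41, 11, 26 and 9, so that replicates of wild type stood furthest apart. It was singled out after its values were seen.

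The loci lay in genes about as often as other repeats. Of 159, 102 were intergenic, 54 intronic, 2 in untranslated regions (Arsb with the overlapping Gm17447, and Xkrx), 1 in an exon of Gm11789, and none in coding sequence. In all, 35.8% of loci were in an annotated gene, beside 34.2% of all telomere arrays and 35.9% of other tandem repeats. The median distance to a protein-coding gene start was 102540 bp for loci, 103823 bp for all telomere arrays and 75157 bp for other tandem repeats. Of other tandem repeats 1.1% were within 1 kb of such a start, and of the loci 0.629%. Only the locus in Phf21a, which encodes a reader of unmethylated histone H3, was within 1 kb of such a start, at 636 bp, with ranks of 2248, 2427, 1677, 119, 914 and 78.

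With only 30 genes of telomere maintenance, peaks at their starts could not be told from the share of all genes, and no test was run. A best 20000 peak lay within 1 kb of the start of 4.99, 3.93, 5.47, 2.37, 5.45 and 4.42% of 22367 protein-coding genes. Of 30 annotated genes for shelterin, telomerase, telomere replication and telomere chromatin, 0, 0, 1, 0, 1 and 0 had such a peak. They were Nr2c2, a nuclear receptor known from variant telomere repeats, at rank 15103 in premalignant replicate 1, and Terf2, the shelterin protein that protects the telomere loop, at rank 17742 in malignant replicate 1.

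To read the arrays without choosing them by their peaks, every perfect array of the hexamer of at least 40 bp was taken from the genome sequence. There were 219, from 40 to 458 bp with a median of 59 bp, 14472 bp in all. The hexamer was on the plus strand in 107 and on the minus strand in 112. In 165 arrays (75.3%) the array was at least as long as a 50 bp read of these libraries.

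An array was counted as covered when a best 20000 peak overlapped it by at least 1 bp. Covered arrays numbered 170, 172, 183, 184, 164 and 182, or 77.6, 78.5, 83.6, 84.0, 74.9 and 83.1%. Tandem repeats of any unit of 1 to 6 bp were covered at 6.63, 7.11, 6.07, 1.93, 2.82 and 2.55% (355281 repeats). Of the telomere arrays, 160 were covered in 6 libraries, 194 in at least 1 and 25 in none. In the full lists, peaks covered 90, 89, 86.3, 92.2, 85.4 and 92.2% of arrays, while they covered 6.64, 9.9, 4.72, 19.1, 10.8 and 19.7% of the genome.

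Telomere arrays stood above the other 355062 repeats in 6 of 6 libraries. Mean coverage was 80.3% against 4.47%, a difference of 75.8 percentage points. Since this hexamer was picked out from its ranks in the same lists, no p is attached to the difference. Other repeats of 6-bp units reached 7.62, 7.17, 7.25, 2.45, 4.89 and 3.53%. The 119 arrays whose unit differs from the hexamer by 1 base, with a median length of 56 bp close to the 59 bp of telomere arrays, were covered at 10.9, 14.3, 13.4, 16.8, 10.9 and 17.6%. Single units differed widely among them. The highest was TTGGGG, with 5 of 13 arrays (38.5%) covered in each library. Units AAACCC (13 arrays), ACCCTC (8) and AACCTT (5), named here by the other strand, had 0 covered arrays in every library.

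**Figure D2:**
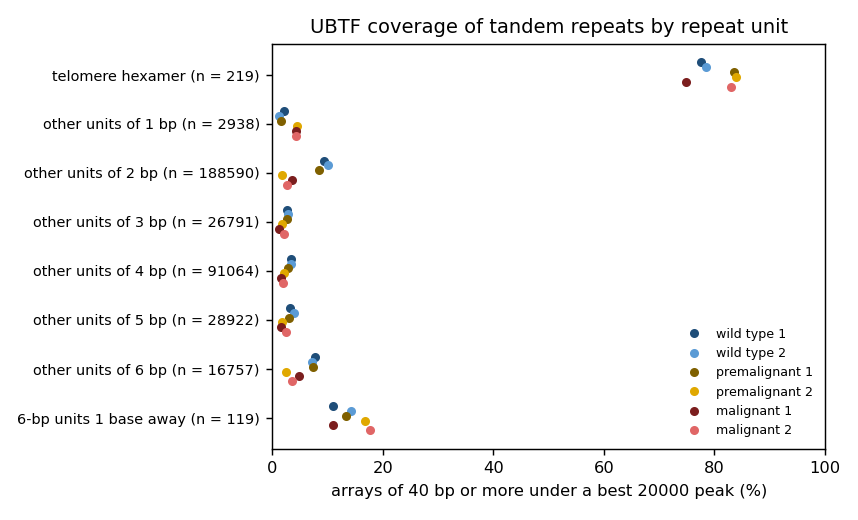
Percent of perfect tandem repeats of at least 40 bp under a best 20000 peak, by repeat unit (rows, with the number of repeats), with 1 point per library. Telomere arrays lie between 74.9 and 84.0%, and 6-bp units 1 base away from the hexamer between 10.9 and 17.6%.

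Coverage rose with the length of the array from 30 to 79 bp. Stretches of 18 to 23 bp (224 stretches) were covered at 1.34, 6.25, 3.12, 1.79, 1.34 and 4.02%. At 30 to 39 bp (40 stretches) the values were 20, 22.5, 22.5, 22.5, 20 and 25%. At 40 to 49 bp (54 arrays) they were 48.1, 51.9, 53.7, 59.3, 46.3 and 63.0%, and at 50 to 59 bp (59 arrays) 83.1, 83.1, 93.2, 89.8, 78 and 91.5%. From 60 to 79 bp (75 arrays) coverage ran from 90.7 to 97.3%, and at 80 to 99 bp (22 arrays) it was 95.5% in each library. The main step thus lay between 30 and 60 bp. The read length of 50 bp is in that range, and its part in the step was not tested.

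Longer arrays also ranked better, apart from the step to 50 to 59 bp in 3 libraries. In the full lists, the median rank of the covering peak was 8975, 3808, 2010, 332, 3843 and 888.5 at 40 to 49 bp, and 4111, 5386, 2288, 407.5, 2746 and 297 at 50 to 59 bp, which is worse in wild type replicate 2 and both premalignant libraries. It was 810, 679, 344, 82, 215 and 83 at 60 to 79 bp. At 80 to 99 bp it was 61, 64, 31, 24, 27 and 20. Spearman's rho between length and rank was taken over arrays with a peak in the full list, which leaves out those of 267, 270 and 458 bp. It was -0.66, -0.58, -0.62, -0.58, -0.61 and -0.59, over 197, 195, 189, 202, 187 and 202 arrays. These are correlations over arrays of 1 genome in 1 library each, not over replicates.

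**Figure D3:**
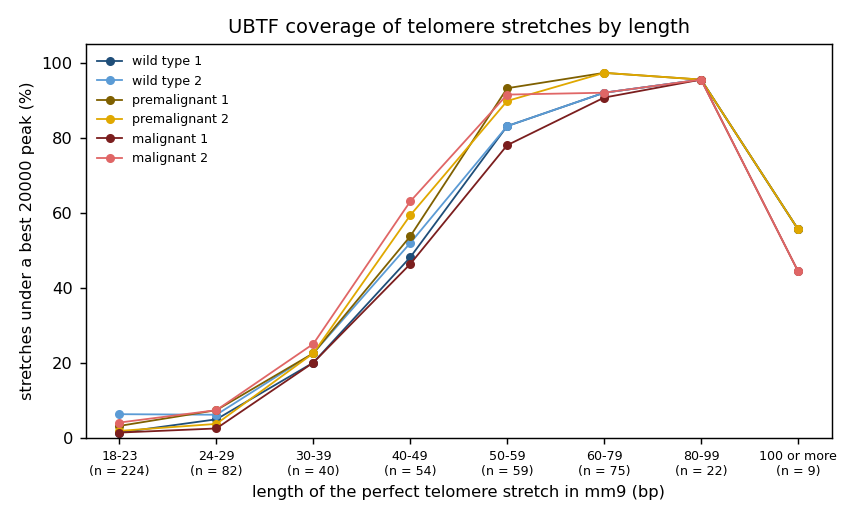
Percent of perfect telomere hexamer stretches under a best 20000 peak (vertical axis) by stretch length in bp (horizontal axis, with the number of stretches), 1 line per library. All 6 lines climb between 30 and 60 bp, reach 95.5% at 80 to 99 bp and fall to 44.4 or 55.6% for the 9 arrays of 100 bp or more.

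Arrays of at least 100 bp departed from this trend, and 3 of the 9 had no peak in any full list. Those were a 267 bp array at the end of chromosome 2, the 458 bp array that ends chromosome 18, and a 270 bp array 122790 bp from the end of chromosome X. Coverage of the 9 was 55.6% in wild type and premalignant and 44.4% in malignant libraries, beside 78.6, 79.5, 84.8, 85.2, 76.2 and 84.8% of the 210 shorter arrays. Of the 6 with a peak in some list, 83.3% were covered in wild type and premalignant and 66.7% in malignant libraries. The mean difference between the 9 and the shorter arrays was -29.7 points, lower in 6 of 6 libraries (exact two-sided sign-flip test over libraries, p = 0.031, adjusted p = 0.031, the smallest this design can give). The direction turned to 19.6 points when arrays from 60 bp were called long, and the difference was -0.55 points (p = 0.875, exact) when stretches within 100 bp were joined. The 6 libraries are read against the same arrays, so this p speaks of the libraries, not of other arrays. With 3 of the 9 lacking a peak in any full list, the main difference would be negative in every library even with the other 6 covered.

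The covered arrays of this length were near the top of the lists. Besides the ends of chromosomes 5 and 11, a 112 bp array on chromosome 1 (195054006 to 195054117), in introns of 1600010F14Rik and Hsd11b1, had ranks of 273, 97, 98, 37, 64 and 35. The other 3 had a peak in some stages and in no list of others.

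**Figure D4:**
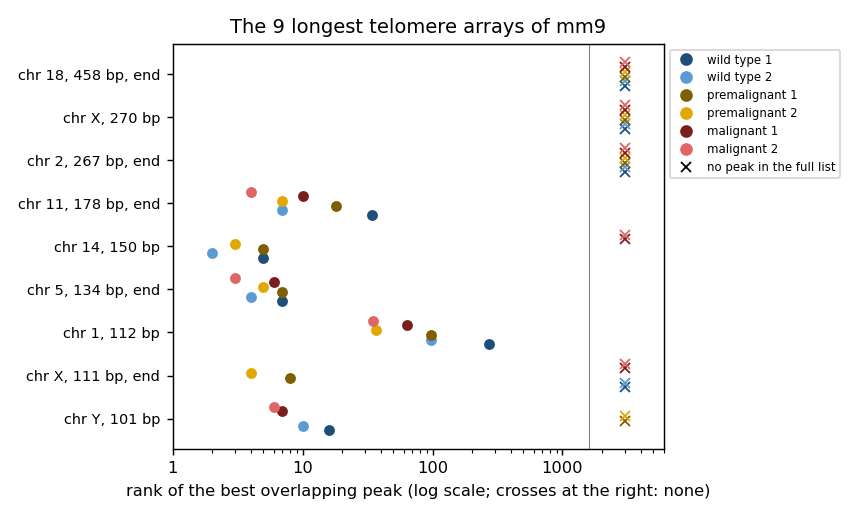
Rank (log scale) of the best peak over each of the 9 arrays of at least 100 bp in the full list of each library, with crosses at the right for libraries without a peak. Arrays on chromosomes 18, X (270 bp) and 2 have crosses only, and those on chromosomes 14, X (111 bp) and Y have peaks in 4, 2 and 4 libraries.

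The 150 bp array inside chromosome 14 (86598800 to 86598949, intergenic) had ranks of 5, 2, 5 and 3 in wild type and premalignant libraries and no peak in either malignant list. The nearest malignant peaks were 13595 and 13577 bp away. The end of chromosome X, where 5 arrays of 60 to 111 bp follow each other (166649922 to 166650296), had ranks of 8 and 4 in premalignant libraries and no peak in the other 4 full lists, the nearest peaks being 14334 to 41172 bp away.

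The 101 bp array on chromosome Y (2652208 to 2652308) had ranks of 16, 10, 7 and 6 in wild type and malignant libraries and no peak in premalignant ones, where the nearest peaks were 13056 and 7520 bp away. The study's methods give the wild type mice as female, and the best 20000 peaks on chromosome Y numbered 40, 36, 36, 114, 34 and 24, so every list held peaks there. In all 3 cases both replicates of a stage behaved alike. Each stage has an input of its own, so a stage and its input cannot be told apart. The arrays on chromosomes 14 and Y were singled out after their values were seen.

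Few members were found in 1 stage only. Peaks without an overlapping best 20000 peak in either other stage were 0, 1, 3, 2, 0 and 2 members, while they made up 28.4, 34.4, 16.9, 31.2, 22.4 and 37.3% of all best 20000 peaks. By locus there were 7, and except for the chromosome X end their ranks were over 1000. Premalignant cells had 3 besides the chromosome X end, on chromosome 4 (31108062 to 31108112, 51 bp, rank 2271), chromosome X (14317143 to 14317189, 47 bp, rank 11511) and chromosome 19 (58556696 to 58556744, 49 bp, rank 15936). Wild type cells had 1, on chromosome 1 (64180619 to 64180662, 44 bp, rank 10364). Malignant cells had 2, in an intron of the phosphodiesterase gene Pde7b on chromosome 10 (20179657 to 20179702, 46 bp, rank 1258) and on chromosome 6 (53747174 to 53747217, 44 bp, rank 18824). Each of these 6 was a member in a single library and had a peak past rank 20000 in another stage.

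Stages were compared by the percent of the 219 arrays covered. The wild type mean was 78.1% ± 0.646, the premalignant mean 83.8% ± 0.323 and the malignant mean 79.0% ± 5.81, where errors are the SD of 2 libraries. Premalignant minus wild type was 5.71 points (p = 0.33, exact two-sided permutation test), with no overlap between the groups. Malignant minus premalignant was -4.79 points (p = 0.33, exact permutation test), and it was -0.685 points without malignant replicate 1 and -8.9 points without malignant replicate 2. Malignant minus wild type was 0.913 points (p = 1, exact permutation test), with the malignant replicates on either side of both wild type values. Without malignant replicate 2 the last difference turned to -3.2 points. With 2 libraries against 2 the test cannot give less than 0.33, so no difference between stages could pass.

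Within a peak width, premalignant replicate 1 minus the wild type mean was 5.48 points among narrow lists, and the malignant mean minus premalignant replicate 2 was -5.02 points among wide lists. The differences depended on how many peaks were read. In the best 5000 peaks coverage was 64.4, 65.3, 71.7, 79.5, 67.1 and 80.4%, so that both malignant and both premalignant libraries lay above both wild type ones. Premalignant minus wild type was then 10.7 points, malignant minus wild type 8.9 points and malignant minus premalignant -1.83 points. In the full lists the same differences were -0.228, -0.685 and -0.457 points. The 5 arrays at the end of chromosome X were among the arrays covered in premalignant cells alone.

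Only 13 of the 219 arrays, at the ends of chromosomes 1, 2, 5, 11, 18 and X, lay under 100 kb from a chromosome end, and 206 were interior. Terminal arrays were covered at 23.1% in wild type and malignant and 61.5% in premalignant libraries, interior arrays at 81.1, 82.0, 85.0, 85.4, 78.2 and 86.9%. By rank the order was the other way. Among arrays with a peak in the full list, median ranks were 34, 7, 8, 4, 10 and 4 for terminal arrays. They were 1264, 1378, 609, 117.5, 372.5 and 116 for interior arrays. The better terminal ranks rest on few arrays and were not tested. The mean difference in coverage was -47.2 points, lower in 6 of 6 libraries (exact two-sided sign-flip test, p = 0.031, adjusted p = 0.031, the smallest this design can give). Here too the 6 libraries are read against the same arrays, so this p speaks of the libraries alone. The arrays at the ends of chromosomes 2 and 18 had no peak in any full list. Terminal coverage therefore could not pass 61.5%, which is below the interior value of every library. With stretches within 100 bp joined, the mean difference was -26.1 points (exact sign-flip p = 0.031, adjusted p = 0.0469). That adjustment included the comparison with other repeats, to which no p is attached, so the adjusted value is not relied on. The difference rests on few ends, since 4 of the 13 arrays lie at the end of chromosome 2, with no peak, and 5 at the end of chromosome X.

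Of the loci, 4 were terminal and 155 interior. The terminal loci at the ends of chromosomes 5, 11 and X ranked near the top wherever they had a peak. The fourth terminal locus, on chromosome 1 at 89.9 kb from the end (197105418 to 197105479, 62 bp), was ranked 1010, 2245, 398, 154, 319 and 90, far below the ends of chromosomes 5 and 11. The nearest locus beyond the limit, on chromosome 10 (129172523 to 129172592, 70 bp, 820583 bp from the end), had ranks of 197, 238, 166, 59, 81 and 57.

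Arrays without a peak in any full list numbered 10. The 4 at the end of chromosome 2 (52, 96, 77 and 267 bp), the one at the end of chromosome 18 and a pair on chromosome X (70 and 270 bp) had no peak within 11293, 13210 and 14229 bp in any library. They stood in repeat-rich sequence, with 94 to 100, 87 and 56 hexamer copies on the same strand in the array and 500 bp on each side, where allowed by the chromosome end. The 61 copies at the end of chromosome X had peaks in premalignant cells, and a cluster on chromosome 13 around 111534308 with 74 copies was covered in all 6 libraries. The remaining 3 were short, at 42 bp on chromosome 10 (23629411 to 23629452), 41 bp on chromosome 12 and 46 bp on chromosome 17, with 8, 7 and 7 copies.

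Coverage was also read by the strand of the hexamer and by position in or outside genes. Among interior arrays, coverage was 77.9, 76.8, 85.3, 82.1, 73.7 and 84.2% with the hexamer on the plus strand (95 arrays) and 83.8, 86.5, 84.7, 88.3, 82.0 and 89.2% on the minus strand (111 arrays), lower for plus in 5 libraries and higher in premalignant replicate 1. With terminal arrays included, intergenic arrays were covered at 73.6 to 84.0% and intronic ones at 77.8 to 86.1%. Strand and gene position were thus read over different sets of arrays, and their spreads are not compared. These are values without a test.

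The rank limit left out arrays that had a weaker peak. In the full lists 27, 23, 6, 18, 23 and 20 more arrays were covered than in the best 20000. The last member of each list ranked 15617, 17812, 18176, 19776, 16097 and 18824, and the first peak beyond rank 20000 with such an array 20270, 20851, 21235, 22612, 21277 and 25274. One of the latter, at rank 21235 in premalignant replicate 1, is the 40 bp array in Prkch on chromosome 12, which was a member at ranks 5402 and 7409 in premalignant replicate 2 and malignant replicate 2. Windows with 30 to 39 bp of the hexamer among the best 20000 numbered 3, 5, 4, 6, 3 and 6, and members with 40 to 42 bp 0, 0, 0, 1, 0 and 1.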

How the data were processed

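Paired 50 bp reads were, per the study's methods, mapped with bowtie2 to mm9 joined to 1 rDNA copy, stripped of duplicates with Picard (1.110 in the submitters' processing notes, with CASAVA 1.8.2), and given to SPP for peak calling in each library. The methods state default options, under which bowtie2 reports 1 alignment for a read that fits several places, and whether such reads were filtered afterwards is not given in the sources used here. Each line of the lists the authors deposited has a peak score from SPP, on a scale that differs between libraries, and only its rank within a list was used. The deposited q-value column (a false discovery rate) was read for a check of the members and the p-value column was not used.

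Windows and perfect repeats (units of 1 to 6 bp, at least 40 bp) were read from NCBIM37, with GENCODE M1 genes, both of the build of the lists, and telomere gene names not in that annotation were matched through synonyms in a RefSeq gene table. Python 3.11.15, numpy 2.4.6, scipy 1.17.1, pandas 2.3.3, pysam 0.24.0, numba 0.67.0, samtools 1.23.1 and matplotlib 3.10.9 were used. The repeat finder, overlaps and tests were tested on simulated data. Stages were compared with exact permutation tests, and array classes with exact sign-flip tests over 6 libraries. The class tests were adjusted together by Benjamini-Hochberg, with that of telomere arrays against other repeats included.

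Named loci were the 12 with the best mean rank (a missing peak counts as list length plus 1), those under 100 kb from an end, up to 3 found in 1 stage only, and those next to each limit. Other named arrays were chosen after their values were seen. Members, lists and tests were chosen with earlier results of these data known. The sequences of single arrays are not reported here.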

Additional observations from a re-analysis of the deposited data

How the results depend on the processing

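Of 92 alternative settings of the stage, class and locus results, 5 turned a direction, and no setting could bring a stage difference past the threshold. Best 5000 peaks gave 10.7, -1.83 and 8.9 points for premalignant minus wild type, malignant minus premalignant and malignant minus wild type. In the full lists, premalignant minus wild type turned to -0.228 points and malignant minus wild type to -0.685 points, and malignant minus premalignant was -0.457 points. Malignant minus wild type was also -1.42 points with arrays of at least 60 bp, and between -3.2 and 5.02 points without each library in turn, turning without malignant replicate 2. The deficit of long arrays turned to 19.6 points with long counted from 60 bp (p = 0.031, exact) and was -0.55 points with stretches within 100 bp joined (p = 0.875, exact). Without each library in turn, telomere minus other repeats was 74.6 to 76.8 points, terminal minus interior -51.9 to -43.9 points and long minus short -31 to -27.5 points, where 5 libraries cannot give an exact p under 0.0625. Requiring arrays of at least 60 bp left 93 of 159 loci. Malignant minus premalignant was -8.9 to -0.685 points without each library in turn. Terminal minus interior was -26.1 points with stretches joined. With the replicate block, the paired stage differences were 5.71, -4.79 and 0.913 points (exact sign-flip p = 0.5, 0.5 and 1). The libraries share only a number in the labels, not an animal. Unknown depth, unequal peak widths, inputs not analysed here and an assembly that holds few chromosome ends limit all values. A 50 bp read inside an array can fit many arrays, and its part in these ranks was not tested.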
